A study of Mus musculus with 5 samples.

Results

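Mitochondrial ribosomal proteins were followed in liver RNA of male Pitx3 eyeless mice on 2-colour cDNA arrays. A probe belonged to the group when its gene symbol in the platform's annotation table starts with Mrpl or Mrps followed by a digit. This gave 79 of 20355 probes, for 64 of 9930 named genes: 49 probes of 40 large subunit genes (Mrpl) and 30 probes of 24 small subunit genes (Mrps). The tested animals were 5 males of strain Pitx3eyl-/-, homozygous for the eyeless allele of the homeodomain transcription factor gene Pitx3, at 17 weeks of age. Each was set on 1 array against 1 RNA pool of wild-type mice, of 4 animals per the sample labels and of 6 per the labelling protocol. The mutant RNA carried Cy5 on replicates 1, 2 and 4 and Cy3 on replicates 3 and 5, the dye swaps. Pitx3 itself has 0 probes in the annotation table and is not analysed here.

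Mitochondria carry ribosomes of their own, which translate the few respiratory chain and ATP synthase subunits encoded by mitochondrial DNA. All protein subunits of these ribosomes are encoded in the nucleus, made in the cytosol and imported. Some descend from bacterial ribosomal proteins and others are found only in mitochondria. Hepatocytes are rich in mitochondria and depend on this translation for oxidative phosphorylation.

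Every value is a log2 ratio, read as mutant liver over wild-type pool, so that 1 stands for a 2-fold higher and -1 for a 2-fold lower signal in the mutant. That direction is a reading of the deposited values and is not known. The pool was the only control, so the spread between wild-type animals is in none of the errors. In whole liver, fewer cells of a type and less RNA per cell cannot be told apart. Of 13 hepatocyte marker genes fixed for a check of the tissue, 9 were on the array with 12 probes, 8 of them measured on all 5 arrays. A ratio gives no level, so the tissue itself could not be checked beyond this. The median ratio of the hepatocyte markers lay between -0.74 and -0.10 on single arrays, and that of 12 erythroid marker probes between 0.00 and 0.64. Medians of 6 macrophage marker probes lay between -0.28 and 1.15, and those of 3 pancreas marker probes between -3.29 and 0.19. For 3 adipose marker probes they were -1.99, -2.73, 3.85, -1.03 and 2.24 on replicates 1 to 5, below 0 with the mutant in Cy5 and above 0 in Cy3. The part of such differences in the results was not tested.

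The group was measured unevenly. Of the 79 probes, 30 had a value on all 5 arrays, 17 on 4, 17 on 3, 11 on 2 and 4 on 1. The share on all 5 arrays was 38.0%, against 31.3% of all probes, 54.1% of 85 cytosolic ribosomal protein probes and 59.1% of 110 respiratory chain probes. Missing values made up 13.9% of the group's probes on replicate 5 and 38.0% on replicate 2, against 25.4% and 32.1% of all probes. Probes seen everywhere were also the quiet ones. Their SD between arrays had a median of 0.49, against 0.71 for all 6364 probes measured on all 5 arrays. Probes of the group seen on 2 to 4 arrays had a median SD of 1.38, against 1.47 for all such probes. An SD under 0.6 was found for 21 of the 30 probes (70.0%), against 41.8% of all probes measured on all 5 arrays. Low spread was not particular to the group. The share was 72.3% for respiratory chain probes (median SD 0.50) and 60.9% for cytosolic ribosomal protein probes (median SD 0.54).

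**Figure D1:**
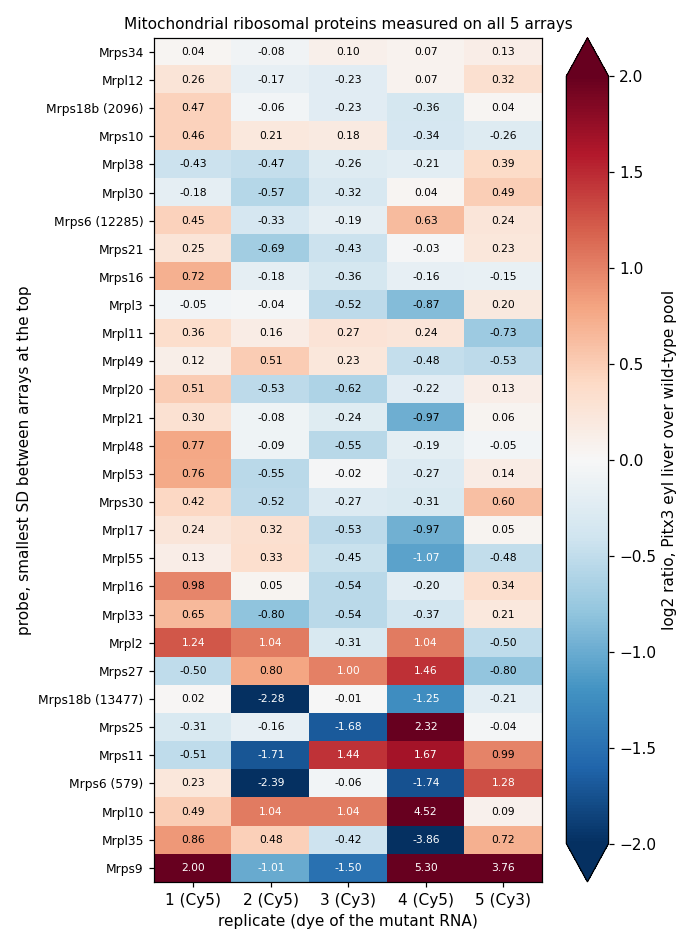
Log2 ratio (mutant liver over wild-type pool) of the 30 mitochondrial ribosomal protein probes measured on all 5 arrays, as colour and printed number. Columns are replicates with the dye of the mutant RNA, and rows run from the smallest SD between arrays (Mrps34, 0.08) at the top to the largest (Mrps9, 2.95). Colours end at 2 on either side. Of the 30 probes, 24 are above 0 (red) on replicate 1 and 23 below 0 (blue) on replicate 3.

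No mitochondrial ribosomal protein passed the adjusted threshold in mutant liver. The 47 probes of 40 genes that had 4 or 5 values, from both dye orientations, entered limma's moderated test, fitted over 11300 probes with a dye term. It called 0 of the 47 at a Benjamini-Hochberg adjusted p under 0.05 (0.0% of all probes), and the lowest adjusted p among them was 0.999. At an unadjusted p under 0.05 there was 1 probe on the lower side, where 1.81% of all probes lay, and 0 on the higher side, where 2.35% lay. The estimate for the mutant, the mean of both dye orientations, is called the mutant coefficient. It lay above 0 for 20 probes and below 0 for 27, so that 42.6% lay above 0, against 53.9% of all probes tested. The group's median was -0.05 with quartiles of -0.18 and 0.08, against a median of 0.04 with quartiles of -0.26 and 0.39 for all probes. If the dye swaps had not been turned before deposit, 28 would lie above and 19 below 0, 59.57% against 45.45% of all probes, so the comparison rests on that reading. With each array centred on its own median, 31.9% of the group (15 above, 32 below) and 50.3% of all probes lay above 0. The sign of the group's median rests on single arrays: it was 0.03 without replicate 3 and 0.02 without replicate 4. A coefficient over 1 in size, past 2-fold, was found for 4 of the 47 probes (8.51%), against 13.2% of all probes. These were Mrps9 and Mrpl10 on the higher side and Mrpl54 and the 1 probe of Mrpl49 on the lower side.

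**Figure D2:**
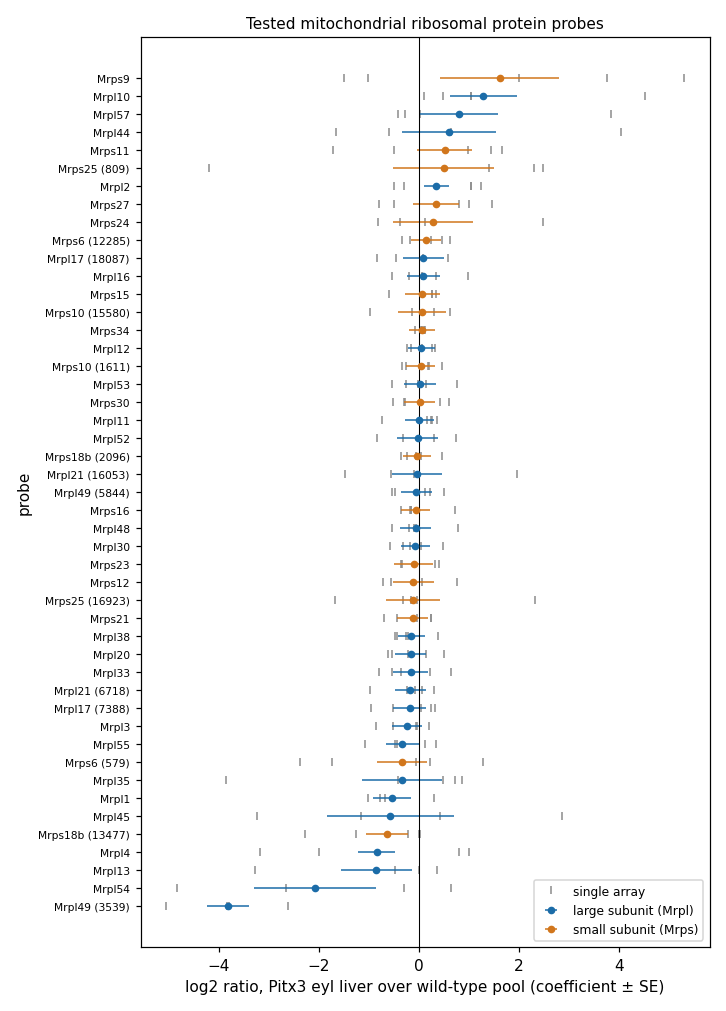
Mutant coefficient (point) with its SE (bar) of the 47 tested probes, on the log2 scale of mutant liver over wild-type pool. Rows run from the highest coefficient (Mrps9, 1.61) to the lowest (Mrpl49 probe 3539, -3.83), large subunit probes are blue and small subunit probes orange, and a number in brackets names the probe where a gene has more than 1 tested. Grey ticks are the single arrays, which reach over 4 on either side for the widest probes, while the middle rows stand close to 0.

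Mrpl49, a large subunit protein found only in mitochondria, had the probe that stood farthest from 0. Probe 3539 read -3.80, -5.05, -2.62 and -3.84 on replicates 1, 3, 4 and 5, with no value on replicate 2. All 4 arrays lay far below 0, in both dye orientations (mean -3.21 in Cy5 and -4.44 in Cy3). The coefficient was -3.83 ± 0.42 (SE, 4 arrays), a 14.2-fold difference, with an unadjusted p of 0.000628 and an adjusted p of 0.999 in limma. It was the lowest coefficient of all 11300 probes tested, and ranked 2, 4 and 6 from the lowest without replicates 1, 2 and 3. With the coded values kept as ratios it ranked 97, at the same coefficient. It stayed between -4.13 and -3.52 over 11 alternative settings, where the limma adjusted p lay between 0.758 and 1.0. With the signs of the swapped arrays turned it was 0.62. The gene's other probe, 5844, did not share these values. It read 0.12, 0.51, 0.23, -0.48 and -0.53 on replicates 1 to 5, with a coefficient of -0.05 ± 0.31 (SE). The probes thus differed by 3.78 in coefficient, and averaged over both the gene stood at -1.63 ± 0.44 (SE; limma unadjusted p 0.0119, adjusted p 0.998).

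Proteins of the stalk, the arm of the large subunit that recruits translation factors, gave small coefficients apart from Mrpl10. Mrpl12, the flexible stalk protein, read 0.26, -0.17, -0.23, 0.07 and 0.32 on replicates 1 to 5, with a coefficient of 0.05 ± 0.27 (SE). Mrpl11, at the stalk base, read 0.36, 0.16, 0.27, 0.24 and -0.73, with a coefficient of 0.01 ± 0.29. Replicates 1 to 4 lay close together and replicate 5 was the lowest. Mrpl53, a protein found only in mitochondria that sits near the stalk, read 0.76, -0.55, -0.02, -0.27 and 0.14, with a coefficient of 0.02 ± 0.32. Mrpl10, which anchors Mrpl12 to the ribosome, read 0.49, 1.04, 1.04, 4.52 and 0.09. It was the only probe of the 30 with 1 sign on all 5 arrays: 1 lay above 0 throughout, where 3.65% of all probes did, and 0 lay below 0 throughout, where 2.34% did. The coefficient was 1.29 ± 0.68 (SE; limma unadjusted p 0.113, adjusted p 0.999). Without replicate 4, its highest array, the coefficient was 0.67. A second Mrpl10 probe had values of 0.28 on replicate 1 and 0.71 on replicate 5 alone.

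Mrps34, a small subunit protein found only in mitochondria and needed to keep that subunit stable, was the steadiest of the group. It read 0.04, -0.08, 0.10, 0.07 and 0.13 on replicates 1 to 5. All arrays lay within about 0.2 of each other, whatever the dye. The SD of 0.08 ranked 8th lowest among 6364 probes measured on all 5 arrays. The coefficient was 0.06 ± 0.25, where limma's SE is drawn towards the prior SD of 0.85 shared by all probes. Next came Mrpl12 with an SD of 0.25, 1 probe of Mrps18b with 0.32 and 1 of Mrps10, a head protein of the small subunit, with 0.34.

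At the other end stood Mrps9, which read 2.00, -1.01, -1.50, 5.30 and 3.76 on replicates 1 to 5. With an SD of 2.95 and arrays on both sides of 0, its coefficient of 1.61 ± 1.18 (SE) was the highest of the group (limma unadjusted p 0.229). Mrpl35 read 0.86, 0.48, -0.42, -3.86 and 0.72, so that replicate 4 alone was far below the rest. Mrpl54 read -4.83, 0.63, -2.66 and -0.29 on replicates 1 to 4. Its coefficient was -2.08 ± 1.21 (limma unadjusted p 0.158). Mrpl44, with a ribonuclease III fold, and Mrpl45, which lies by the exit tunnel and holds the ribosome to the inner membrane, also spread widely. Arrays of Mrpl44 ran from -1.66 to 4.05 (coefficient 0.60 ± 0.94) and those of Mrpl45 from -3.24 to 2.86 (coefficient -0.57 ± 1.27).

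Large and small subunit probes were set side by side. Of 28 tested large subunit probes, 9 lay above and 19 below 0, with a median coefficient of -0.11. Of 19 small subunit probes, 11 lay above and 8 below 0, with a median of 0.04. The difference of -0.15 was not shared by the arrays. The large subunit median minus the small subunit median was 0.33, 0.19, -0.14, -0.02 and -0.09 on replicates 1 to 5, over all measured probes. In the structure of the mammalian mitoribosome Mrps18a and Mrps30 belong to the large subunit, and Mrps36 is a subunit of the oxoglutarate dehydrogenase complex. Of these, Mrps30 alone was tested, and with it placed by structure the difference was -0.12. Without replicate 5 it was -0.31 and without replicate 2 it was -0.02.

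By descent the members gave nearly equal medians. The 30 tested probes of proteins with a bacterial counterpart had 13 above and 17 below 0 and a median of -0.05. The 17 probes of proteins found only in mitochondria had 7 above and 10 below 0 and a median of -0.05. Among those with a bacterial counterpart stand proteins close to the catalytic and decoding sites. Mrpl3, by the peptidyl transferase centre, read -0.05, -0.04, -0.52, -0.87 and 0.20 (coefficient -0.24 ± 0.30, SE). Mrps12, of the decoding centre, read 0.76, -0.71, 0.06 and -0.56 on replicates 1, 2, 3 and 5 (coefficient -0.11 ± 0.41). Neither moved past the spread between arrays.

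Levels of the arrays differed over the group. Over the 30 probes measured on all 5 arrays, the median was 0.33, -0.12, -0.26, -0.21 and 0.13 on replicates 1 to 5. Medians of all 6364 such probes were 0.11, -0.00, -0.05, -0.09 and 0.10. On replicate 1, 24 of the 30 lay above 0, and on replicate 3, 23 of 30 lay below 0. Replicate 1 was the highest array for 14 of the 30 (46.7%) and the lowest for 0, against 26.3% and 16.1% of all probes. Replicates 1 and 5 both stood above all of replicates 2, 3 and 4 for 13 of the 30 (43.3%), against 14.8% of all probes. Quiet probes had this order more often throughout. Among those with an SD under 0.6 it was found for 11 of 21 in the group (52.4%), against 22.3% of all 2662 such probes. Among the group's probes with an SD of 0.6 or more it was 2 of 9. This pattern was singled out after the values were seen. Replicates 1 and 5 carried the mutant RNA in different dyes. Hepatocyte marker medians were -0.10, -0.74, -0.37, -0.32 and -0.27 on replicates 1 to 5, so they too stood highest on replicates 1 and 5. Of the 8 hepatocyte marker probes measured on all 5 arrays, 2 had that order singly. Their part in the order was not tested.

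Those 13 probes include the stalk proteins Mrpl12 and Mrpl53 and 11 others: Mrpl16, Mrpl20, Mrpl21, Mrpl33, Mrpl35, Mrpl48, Mrps6 (probe 579), Mrps16, Mrps18b (probe 2096), Mrps21 and Mrps30. Mrps6 probe 12285 and Mrps18b probe 13477, also measured on all 5 arrays, did not have this order. Second probes of Mrpl21 and Mrpl48, with fewer values, did not follow it either. Mrpl21 probe 16053, with no value on replicate 1, was lowest on replicate 5 at -1.47 and highest on replicate 4 at 1.96. Mrpl48 probe 7819, with 3 values, was lowest on replicate 1 at -1.775 and highest on replicate 5 at 0.90. An SD under 0.6 was found for 11 of the 13, all but Mrpl35 and Mrps6 probe 579. The order does not mean a value above 0 on replicate 5. Mrps16 read -0.152 there, against -0.159 on replicate 4, and Mrpl48 probe 557 read -0.052, against -0.09 on replicate 2. Mrpl33 read 0.65, -0.80, -0.54, -0.37 and 0.21 on replicates 1 to 5. Mrpl20 read 0.51, -0.53, -0.62, -0.22 and 0.13, and Mrps21 read 0.25, -0.69, -0.43, -0.03 and 0.23. All of these cross 0 between arrays, and their coefficients were -0.17 ± 0.34, -0.16 ± 0.31 and -0.13 ± 0.30 (SE).

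Cytosolic ribosomal proteins and respiratory chain subunits, measured on the same arrays against the same pool, had medians of the same sign on replicates 1 to 4. The 46 cytosolic ribosomal protein probes had medians of 0.36, -0.77, -0.54, -0.08 and 0.17 on replicates 1 to 5, and the 65 respiratory chain probes 0.49, -0.36, -0.37, -0.20 and -0.04. Replicates 1 and 5 stood above the other 3 arrays for 60.9% of the cytosolic ribosomal protein probes and 50.8% of the respiratory chain probes. On replicate 2 the cytosolic ribosomal proteins stood lowest of the 3 groups. In the test, 44 of 58 cytosolic ribosomal protein probes (median -0.17) and 54 of 72 respiratory chain probes (median -0.16) lay below 0, against 27 of 47 in the mitochondrial ribosome. These comparisons share arrays and pool, and the difference between the groups was not tested.

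**Figure D3:**
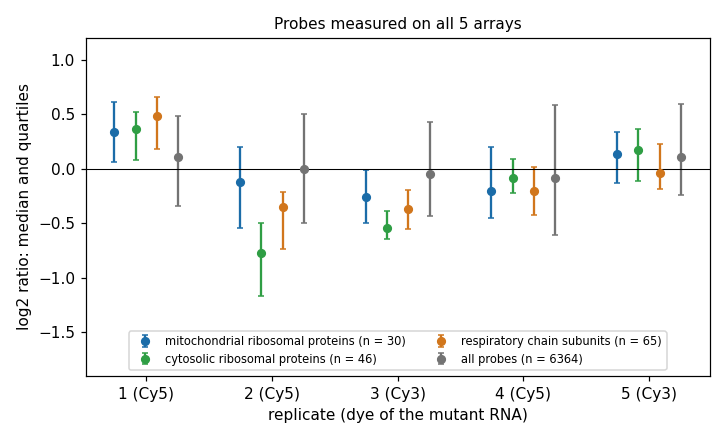
Median log2 ratio (point) and quartiles (bar) on each replicate, for probes measured on all 5 arrays: 30 of mitochondrial ribosomal proteins, 46 of cytosolic ribosomal proteins, 65 of respiratory chain subunits and all 6364. The 3 gene groups stand highest on replicate 1 (0.33, 0.36 and 0.49) and below 0 on replicates 2, 3 and 4, while the median of all probes stays between -0.09 and 0.11.

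Promoters of the group are described because 13 of its probes shared an order of arrays. Genes for mitochondrial proteins are known for binding sites of NRF1, of the ETS factor GABPA and of YY1 near their start. RefSeq promoters of mouse build GRCm38.p6, from 250 bases before to 50 after a start, were found for 57 of the 64 genes, with 63 promoters. The letters GCGCA, any base and GCGC (NRF1), CCGGAAG (GABPA) and AAGATGGCG (YY1) were searched on both strands, and 0 copies of different motifs overlapped. NRF1 letters stood in 17.5% of the group's promoters against 4.60% of all 32851 promoters in the table. GABPA letters stood in 36.5% against 8.86%, and YY1 letters in 12.7% against 1.40%. Of the 57 genes, 36 held at least 1 of these 3 motifs. Of the 13 genes with a probe high on replicates 1 and 5, 5 held a copy in the 150 bases before a start. The share was no higher than in the group, where 23 of 57 genes (40.4%) did, against 9.75% of all genes in the table. Mrpl48 and Mrps16 have other promoters in the table, without a copy there. Those stretches are shown 5′ to 3′ on the gene's strand, with the motif letters in capitals: NRF1 letters in Mrpl12 and Mrps21, and GABPA letters in Mrpl48, Mrps16 and, with 2 copies, Mrpl53.
Mrpl12 (chr11:120484487-120484636, plus strand): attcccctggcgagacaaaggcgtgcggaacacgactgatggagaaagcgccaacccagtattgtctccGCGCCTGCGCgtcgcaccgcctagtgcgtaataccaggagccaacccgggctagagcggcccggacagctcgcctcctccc
Mrpl48 (chr7:100583131-100583280, minus strand): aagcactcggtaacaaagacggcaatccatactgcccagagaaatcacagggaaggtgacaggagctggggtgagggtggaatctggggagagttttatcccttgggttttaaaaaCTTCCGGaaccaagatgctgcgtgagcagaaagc
Mrpl53 (chr6:83108958-83109107, plus strand): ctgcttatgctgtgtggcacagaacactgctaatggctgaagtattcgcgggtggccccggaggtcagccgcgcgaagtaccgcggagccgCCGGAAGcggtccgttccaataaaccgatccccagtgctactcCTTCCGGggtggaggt
Mrps16 (chr14:20393491-20393640, minus strand): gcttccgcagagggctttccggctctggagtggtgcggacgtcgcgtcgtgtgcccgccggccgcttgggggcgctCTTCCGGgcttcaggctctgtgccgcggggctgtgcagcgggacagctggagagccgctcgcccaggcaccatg
Mrps21 (chr3:95871515-95871664, minus strand): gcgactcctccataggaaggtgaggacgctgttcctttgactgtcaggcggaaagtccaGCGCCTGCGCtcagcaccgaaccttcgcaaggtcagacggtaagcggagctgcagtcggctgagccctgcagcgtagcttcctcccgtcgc
A match describes these letters and not binding of a factor.

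For 7 genes, 2 probes each were tested, which shows how far a value belongs to a gene. The coefficients of a pair had 1 sign for 4 of the 7 genes, and on 19 of 30 shared arrays both probes had 1 sign. Of these tested pairs, those of Mrps10 and Mrpl17 lay closest by array, with median differences of 0.31 and 0.38. Mrpl17 also has probe 3577, which was measured on 3 arrays, was not tested and did not share these values. It read -1.93, 1.59 and 6.51 on replicates 1, 3 and 4. On replicate 4 the tested Mrpl17 probes 7388 and 18087 read -0.97 and -0.84. Mrps10 probe 1611 read 0.46, 0.21, 0.18, -0.34 and -0.26 on replicates 1 to 5, and probe 15580 read -0.98, 0.61, 0.29 and -0.14 on replicates 1 to 4. The probes of Mrps10 had 1 sign on replicates 2, 3 and 4 and opposite signs on replicate 1.

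Mrps18b is 1 of 3 related S18-type proteins, with Mrps18a and Mrps18c. Its probe 2096 read 0.47, -0.06, -0.23, -0.36 and 0.04 on replicates 1 to 5, with a coefficient of -0.04 ± 0.28 (SE). Probe 13477 read 0.02, -2.28, -0.01, -1.25 and -0.21, with a coefficient of -0.64 ± 0.41. Both were low on replicate 4, but only probe 13477 was far below 0 on replicate 2. Mrps18a and Mrps18c had 3 values each, from -2.61 to 2.18 and from -1.04 to 0.61, and were not tested. Mrps6, the neighbour of an S18-type protein in ribosomes, had coefficients of -0.34 ± 0.50 for probe 579 and 0.14 ± 0.30 for probe 12285. Probe 579 ran from -2.39 on replicate 2 to 1.28 on replicate 5.

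In Mrps25 the probes moved apart. Probe 809 read -4.20, 1.402, 2.49 and 2.29 on replicates 1, 2, 3 and 5, and probe 16923 read -0.31, -0.16, -1.68, 2.32 and -0.04 on replicates 1 to 5. Their coefficients were 0.50 ± 1.01 and -0.12 ± 0.54 (SE). Without replicate 1, probe 809 stood at 1.90, where replicate 2 was its only array in Cy5. Mrpl21 had probes at -0.17 ± 0.32 and -0.04 ± 0.49, of which 16053 alone reached 1.96 on replicate 4. Mrpl17 stood at -0.19 ± 0.33 and 0.09 ± 0.40.

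**Figure D4:**
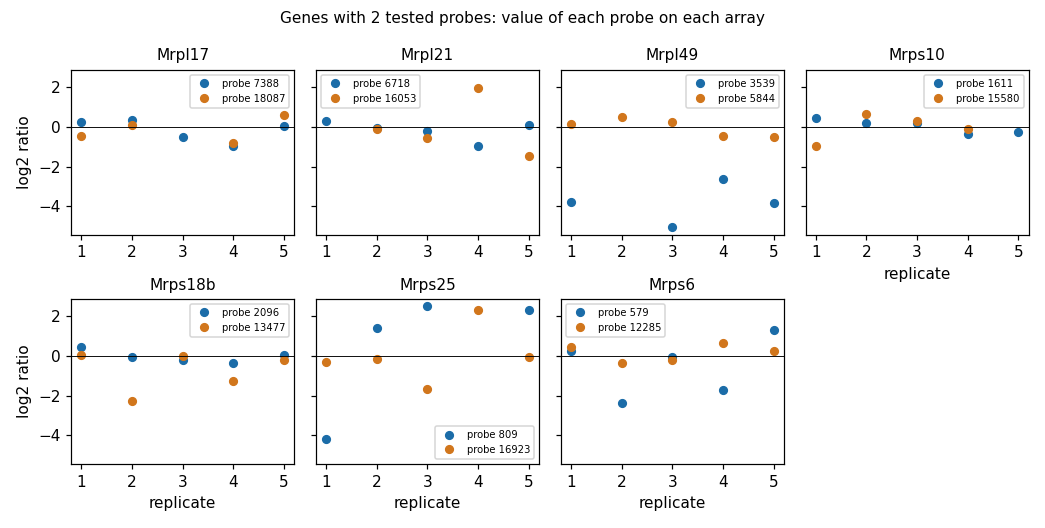
Log2 ratio (mutant liver over wild-type pool) on each replicate for the 7 genes with 2 tested probes, with 1 colour per probe. In Mrpl49, probe 3539 lies between -5.05 and -2.62 and probe 5844 between -0.53 and 0.51, while the probes of Mrps10 lie within about 0.4 of each other on replicates 2 to 4.

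A dye coefficient was fitted beside the mutant coefficient for each tested probe. The dye coefficient is the mean of arrays with the mutant in Cy5 minus that of arrays with the mutant in Cy3, divided by 2. It would be the mutant coefficient if the swapped arrays had not been turned before deposit. Limma called 0 of 47 for it (0.0% of all probes), with a lowest adjusted p of 0.495 in the group. At an unadjusted p under 0.05 there was 1 probe above 0, where 1.49% of all probes lay, and 1 below 0, where 5.89% lay. The lower one was Mrpl4 probe 18896, with -1.995 and -3.18 on replicates 1 and 4 in Cy5 and 0.80 and 0.997 on replicates 3 and 5 in Cy3. Its dye coefficient of -1.74 ± 0.37 was larger than its mutant coefficient of -0.85 ± 0.37 (SE). The upper one was Mrpl2, of the peptidyl transferase centre, with 1.24, 1.04 and 1.04 in Cy5 and -0.31 and -0.50 in Cy3 (dye coefficient 0.76 ± 0.26). Values of these probes split by dye without overlap. The other Mrpl4 probe, 12055, had values in Cy5 alone, at -2.76 on replicate 1 and 4.92 on replicate 4. A split by dye could thus not be seen for it. The dye coefficient exceeded the mutant coefficient in size for 28 of the 47 probes (59.6%), against 52.9% of all probes.

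The other 32 probes were measured on 1 to 3 arrays and were not tested, and 24 genes had no tested probe. Of the 28 probes with 2 or 3 values, 8 had 1 sign, 3 above and 5 below 0. This share of 28.6% was near the 32.2% of all 7646 probes with 2 or 3 values, and the members named here are given as values only. Mrpl34 read 1.08, 0.33 and 1.51 on replicates 1, 2 and 5, and its other probe had 1.94 on replicate 3, its only value. The gene thus lay above 0 on each of 4 arrays. With probes of a gene averaged it stood at 1.22 ± 0.35 (SE; limma unadjusted p 0.0206, adjusted p 0.998). Mrps5 read -4.63, -0.14 and -1.08 on replicates 1, 3 and 5. When 3 arrays were enough for the test it stood at -2.62. Replicate 1 was then the only array in Cy5, so the spread within that orientation could not be measured.

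Mrps22, which is mutated in a human mitochondrial disease, read -1.26 and -1.89 on replicates 3 and 5, and Mrpl9 read -1.92 and -1.48 on replicates 1 and 2. Mrps17 probe 1722 read -0.81, -1.62 and -0.25 on replicates 1, 2 and 4, while its other probe had values of both signs. Mrpl43 read 0.10, 2.12 and 5.80 on replicates 2, 3 and 5. Others stood wide on both sides of 0, such as Mrpl46 with 3.51 on replicate 1 and -3.51 on replicate 3. Mrps36 read -6.07 on replicate 1 and 1.13 on replicate 5. The rescue factor Mrpl58, which frees peptides from stalled mitoribosomes, ran from -0.51 to 2.70.

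Genes that build, run or regulate the mitoribosome gave no call either, with limma calling 0 in each of 5 lists in either direction. The first list held 7 symbols, of mitoribosomal proteins with other names and of the insertase Oxa1l. In it, 4 probes of 3 genes, Oxa1l among them, were tested and all 4 lay above 0 (median 0.10). Dap3, a GTP-binding small subunit protein, stood at 0.15 ± 0.28 (SE) and Chchd1 at 0.05 ± 0.35. Oxa1l, the inner membrane insertase for the nascent chains, stood at 1.21 ± 0.75, but its arrays ran from -4.40 to 5.50 and its dye coefficient of -3.69 was larger in size. Translation factors had 4 of 9 probes above 0 (median -0.07). Among them, Mtfmt, which formylates the initiator methionyl-tRNA, stood at -1.01 ± 0.62, the release factor Mtrf1l at -1.08 ± 0.67 and the recycling factor Gfm2 at 0.27 ± 0.28.

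Assembly factors had 10 of 16 probes above 0 (median 0.17). The rRNA methyltransferase Nsun4 lay below 0 on all 5 arrays, from -1.35 to -0.01, with a coefficient of -0.69 ± 0.34 (SE; limma unadjusted p 0.0936). The helicase Ddx28 stood at 1.05 ± 0.52 and Mettl17 at 1.95 ± 1.21. Mitochondrial tRNA synthetases had 4 of 6 probes above 0 (median 0.26), with Vars2 at -0.39 ± 0.30, Gars at 0.29 ± 0.35 and Iars2 at 0.23 ± 0.36. Vars2 had a dye coefficient of 1.16, larger than its mutant coefficient in size.

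Regulators of mitochondrial transcription and biogenesis had 7 of 11 probes above 0 (median 0.31), against 53.9% of all probes. At an unadjusted p under 0.05, 2 of the 11 lay on the higher side, where 2.35% of all probes did, and 0 on the lower side. Tfam, which packages mitochondrial DNA and starts its transcription, read 1.82, 0.31, 1.18, 2.58 and 0.46 on replicates 1 to 5. All 5 arrays lay above 0, and the coefficient was 1.19 ± 0.42 (SE; limma unadjusted p 0.0355, adjusted p 0.999). The transcription factor gene Yy1 read 1.55, 0.87, 1.66 and 0.69 on replicates 1 to 4, with a coefficient of 1.35 ± 0.40 (unadjusted p 0.0253, adjusted p 0.999). The matrix protease Lonp1 stood at 1.11 ± 0.57. Values of Tfam and Yy1 are given as such, since neither passed the correction over all 11300 probes.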

How the data were processed

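The authors deposited 1 log2 ratio per probe and array, a scale read from the values themselves. How spots were scanned, background-corrected and normalized is not given in the sources used here. Total RNA (20 µg per labelling) was labelled indirectly with Cy3 or Cy5, per the labels' protocols. On each array 1 extreme value recurs, beyond 12 in size. These 788 values (3 in the group) were read as a code for an unmeasurable ratio and set to missing. The code is positive where the mutant is in Cy5 and negative where it is in Cy3, which is why dye swaps were taken as already turned. Over all probes, arrays of opposite dye correlated at -0.26 to -0.05 and arrays of the same dye at -0.02 to 0.11. Over the group's 30 probes on all 5 arrays these ran from -0.47 to 0.45 and from -0.34 to 0.20. With the swapped arrays turned, 834 of 11300 probes had a limma unadjusted p under 0.05, against 470 as deposited, and 0 were called. Which reading holds was not tested. No value column was left unused (0 columns).

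Gene names came from the platform's table (14030 probes with 1 symbol, 5 with several, 6320 unnamed). A RefSeq gene table held all 79 gene identifiers and changed 0 symbols. An intercept plus a term for dye orientation was fitted with lmFit and eBayes of limma (version 3.58.1, under R 4.3.3). The prior had 2.24 degrees of freedom and an SD of 0.85. The fit was also run on simulated data, but how large a change it would call is not given here. Arrays give no read depth, and their number, 5, limits the precision. The rule for named probes took up to 8 a side of those with 1 sign on all their arrays, by p, genes with 2 tested probes, the 4 smallest and 4 largest SDs, the stalk proteins, the Mrps18 paralogs and the 3 lowest p of each related list. Others are named for a count, a role or a missing value, after their values were seen. The members and lists were chosen with earlier results of these data known. Alternatives changed 1 choice at a time: codes, centring, filter, dye term, variance model, averaging of probes, subunit placement, signs of swapped arrays and left-out replicates.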

Additional observations from a re-analysis of the deposited data

Results flagged for a closer look

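Among 47 tested probes of the group and 15 of related genes, 7 probes had 1 array far from the others by Dixon's criterion. For normally distributed values, chance meets it in about 1 of 20 groups. The same count over all probes was not made, so the 7 are not read as an excess. Mrpl10 (probe 545) read 4.52 on replicate 4, against 0.09 to 1.04 on the other arrays. Mrpl35 (probe 7986) read -3.86 on replicate 4, against -0.42 to 0.86. Mrps25 (probe 809) read -4.20 on replicate 1, against 1.402 to 2.49 on the other 3 arrays that measured it. Mrpl11 (probe 16109) read -0.73 on replicate 5, against 0.16 to 0.36. Mrps16 (probe 16775) read 0.72 on replicate 1, against -0.36 to -0.15. Mrpl57 (probe 5993) read 3.84 on replicate 3, against -0.43 to 0.03 on the other 3 arrays that measured it, and Mrps15 (probe 14128) read -0.59 on replicate 4, against 0.26 to 0.34 on its other 3.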

How the results depend on the processing

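Limma called 0 probes of the whole array and 0 of the mitochondrial ribosome for the mutant coefficient under each alternative run. For the dye coefficient it called 0 in each alternative that holds a dye term. Group members at an unadjusted p under 0.05 numbered 1, and 0 when values on all 5 arrays were required, 2 when 3 arrays were enough, 2 with probes of a gene averaged, and 1 to 3 with 1 replicate left out: 3 without replicate 5 (Mrpl49, Mrpl57 and Mrpl13), 2 without replicate 1, 2 or 4 and 1 without replicate 3. Members above 0 numbered 20 of 47, 13 of 30 when values on all 5 arrays were required, and 16 to 32 with 1 replicate left out, where the number tested also changed. The group's median coefficient lay between -0.13 and 0.03 with 1 replicate left out and was 0.08 with the swapped arrays turned. The difference between the subunits lay between -0.31 and -0.02 with 1 replicate left out. Without values at ratios of small whole numbers (20 or less), an alternative added after the data were seen, the median was -0.06.

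Small coefficients changed sign, and the cause was not tested. With arrays centred these were Mrpl11 at -0.0287, Mrpl53 at -0.0173, Mrpl17 probe 18087 at -0.005 and Mrps10 probe 1611 at -0.0033. Without the dye term they were Mrpl17 probe 18087 at -0.16, Mrps10 probe 15580 at -0.0517 and Mrps25 probe 16923 at 0.028. With 1 replicate left out, coefficients crossed 0 within these ranges: Mrpl11 from -0.24 to 0.26, Mrpl12 from -0.0882 to 0.19, Mrpl53 from -0.17 to 0.15, Mrpl35 from -0.77 to 0.41 and Mrpl49 probe 5844 from -0.24 to 0.14. Mrpl17 ran from -0.0315 to 0.20 (probe 18087) and -0.33 to 0.021 (probe 7388), and Mrpl21 from -0.55 to 0.47 (probe 16053) and -0.31 to 0.0107 (probe 6718). Mrps10 ran from -0.13 to 0.27 (probe 15580) and -0.0742 to 0.15 (probe 1611), Mrps18b probe 2096 from -0.15 to 0.0558, and Mrps25 from -0.90 to 1.90 (probe 809) and -0.55 to 0.29 (probe 16923). Missing values or left-out replicates leave an orientation with 1 array in some fits, which is then assumed to vary like the rest. No paired analysis was possible because the samples form 1 group. Signal over background is unknown, so weak spots could not be set apart.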

Other observations

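Values at ratios of small whole numbers (20 or less, within 0.0006 on the log2 scale) made up 11.2% of the 295 values of the mitochondrial ribosome, against 16.1% over all probes. Among the group's probes measured on all 5 arrays the share was 6.67%, and among those on 1 to 4 arrays 15.9%. All probes gave 10.8% and 20.3%. None of the 4 values of Mrpl49 probe 3539 lay at such a ratio (0 of 4). The 3 coded values of the group belonged to Mrps18a on replicate 2, Mrps23 on replicate 4 and Mrps26 on replicate 3.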
